A study of Homo sapiens with 3 samples.

Results

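The regions described here are the acrocentric short arms, those of chromosomes 13, 14, 15, 21 and 22, outside their ribosomal DNA (rDNA) arrays. They were taken as 10 windows on T2T-CHM13, 1 on each side of the array. The distal windows, between telomere and array, began at 0 and ended at 5.7, 2, 2.4, 3 and 4.7 Mb, in the order of the chromosomes. The proximal windows, between array and centromere, ran from 9.4 to 15.5 Mb, 2.9 to 10 Mb, 4.8 to 16.6 Mb, 5.7 to 10.9 Mb and 5.8 to 12.7 Mb in the same order. Peaks overlapping a window by at least 1 bp were its members. These were 7627 of 181157 control peaks (4.21%) and 5574 of 105729 siORCA peaks (5.27%), or 13201 of 286886 in all. The distal windows held 2586 control and 2649 siORCA peaks, and the proximal windows 5041 and 2925.

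H3K27me3 was profiled by ChIP-seq in U2OS, a human osteosarcoma cell line. Cells had received either the control Gl3 or siORCA, which is directed at ORCA, a protein that binds the origin recognition complex. Each condition had 1 ChIP library with its own list of broad peaks, and the input library was not analysed here. With 1 library per condition, no difference between conditions was tested, and no value of ORCA itself was analysed here. No source used here gives the read depth of the libraries, so fewer reads and less of the mark in siORCA cannot be told apart.

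H3K27me3 is written by Polycomb repressive complex 2 and marks silenced chromatin. The short arms of the acrocentric chromosomes are gene-poor and consist largely of satellite DNA, segmental duplications and the rDNA arrays, which form the nucleolus. The sequence directly distal of the array, called the distal junction, is shared by all acrocentric chromosomes and lies at the edge of the nucleolus. The proximal side carries long satellite blocks up to the centromere. These arms exchange sequence with each other and differ between genomes, so reads from U2OS were placed on the arms of another human genome.

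The 5 gaps between the windows, where the arrays lie, set the windows apart from the arrays. The gaps were covered by control peaks over 0.266% of their length and by siORCA peaks over 13.1%. All 10 windows went the other way, with more length covered in the control than in siORCA.

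The distal windows were more densely covered than the proximal windows in both lists, and a larger part of their cover was found in siORCA. Control peaks covered 4.71 Mb of the distal windows (26.5% of their length) and 6.39 Mb of the proximal windows (17.2%). In siORCA the values were 3.01 Mb (16.9%) and 1.88 Mb (5.07%). The ratio of siORCA to control was thus 0.638 distally and 0.294 proximally, on either side of the 0.447 of all chromosomes. Distal coverage exceeded proximal coverage 1.54 times in the control and 3.33 times in siORCA. Without chromosome 22 these values were 1.18 and 2.28. Over all chromosomes, peaks covered 6.77% in the control and 3.03% in siORCA.

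The order of the sides was the same on each of the 5 chromosomes. On chromosome 13, control peaks covered 5.02% of the distal and 4.29% of the proximal window, and siORCA peaks 1.88% and 1.12%. Both windows of this chromosome were thinly covered, below the level of all chromosomes in both lists. On chromosome 14 the control values were 31.6% and 29.7%, and the siORCA values 19.8% and 7.03%. The 2 sides were therefore nearly alike in the control and unlike in siORCA. On chromosome 15, 28.6% and 14.3% were covered in the control and 19.6% and 6.22% in siORCA. Chromosome 21 had 21.9% and 6.86% in the control and 13.9% and 2.05% in siORCA. Chromosome 22 had the densest distal window of the 5, with 52.1% in the control and 34.4% in siORCA, against 28.6% and 6.83% proximally.

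On all 5 chromosomes this ratio of covered lengths was higher distally than proximally. It was 0.375 against 0.262 on chromosome 13, 0.627 against 0.237 on chromosome 14, and 0.686 against 0.436 on chromosome 15. On chromosome 21 it was 0.632 against 0.299 and on chromosome 22 it was 0.66 against 0.239. Except for chromosome 13, the distal ratios lay within 0.627 to 0.686, and the 5 proximal ratios lay below that of all chromosomes. The distal ratio was also the higher one on 5 of 5 chromosomes when peaks were limited to a fold of 3 or more, to a −log10 q of 2 or more, or to equal numbers per list. The 5 arms share sequence and a library and are not replicates, so this order is a description.

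**Figure D1:**
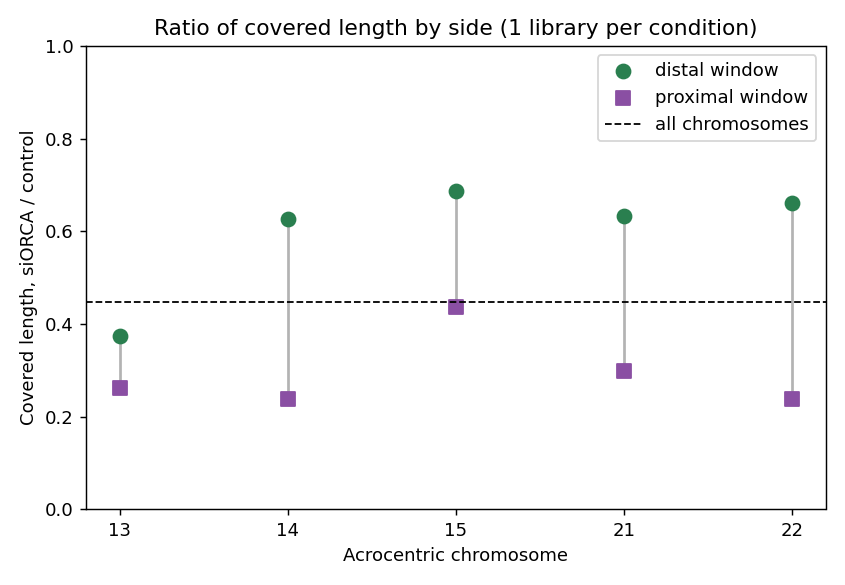
Ratio of covered length in siORCA to that in the control (vertical axis) for the distal window (circles) and the proximal window (squares) of each acrocentric chromosome (horizontal axis); the dashed line is the ratio over all chromosomes, 0.447. Every circle lies above its square, from 0.375 against 0.262 on chromosome 13 to 0.66 against 0.239 on chromosome 22.

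**Figure D2:**
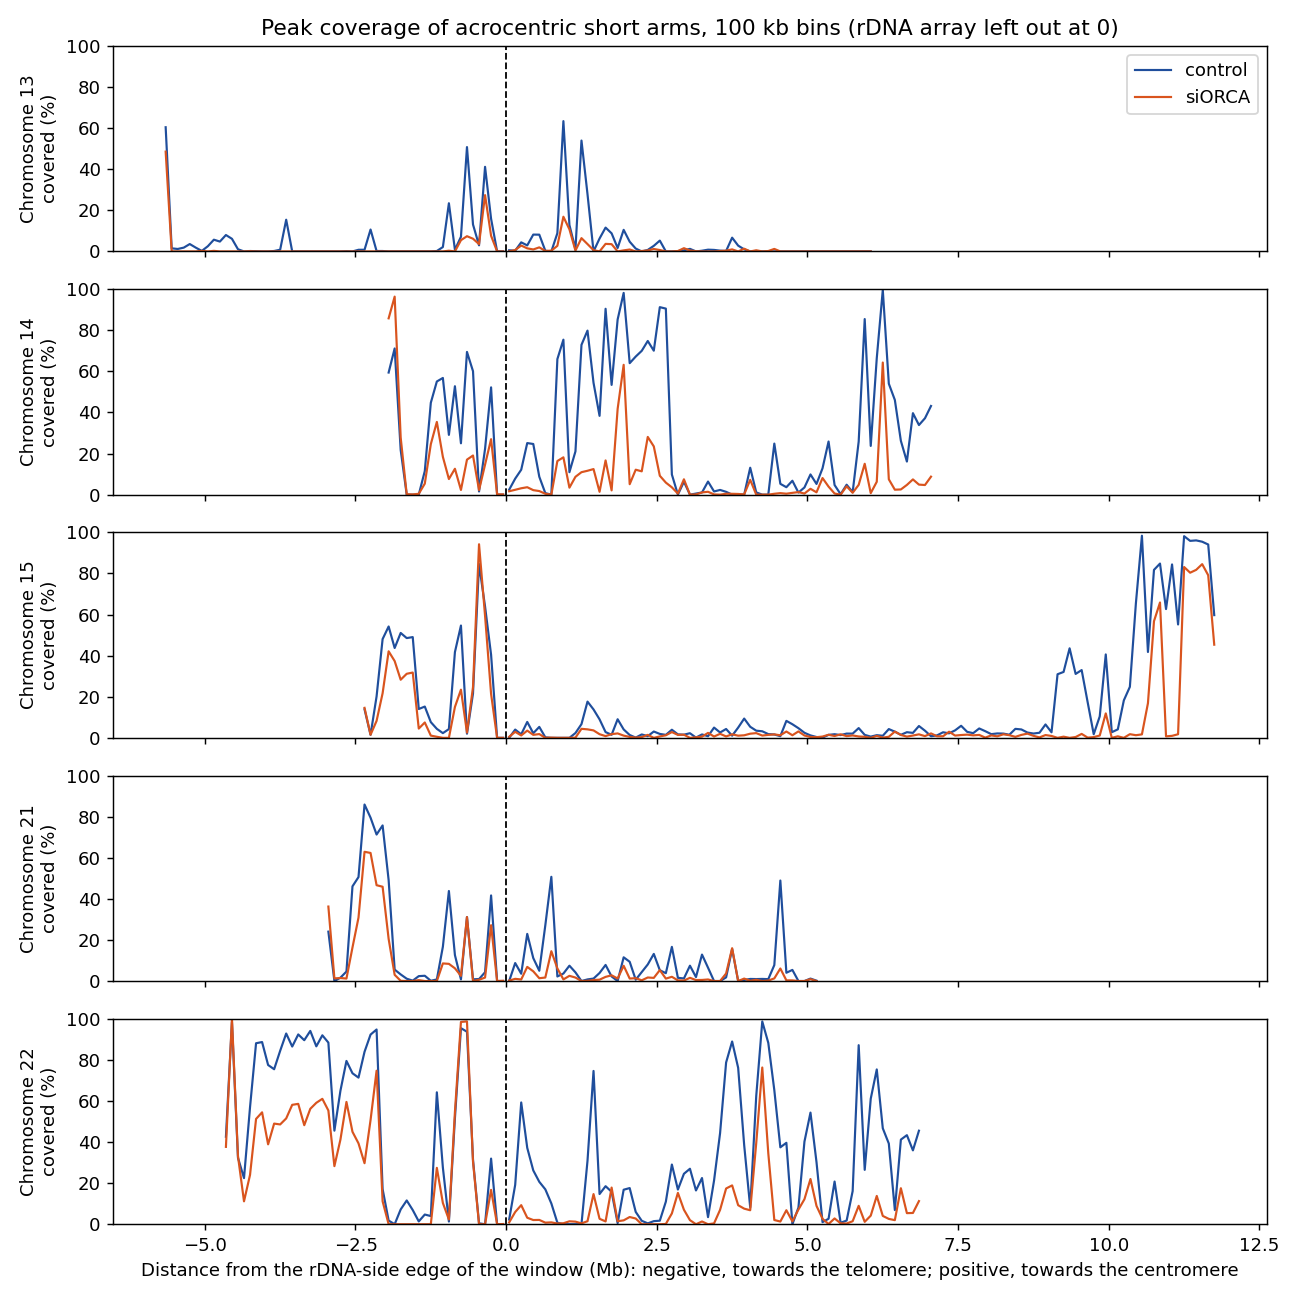
Percent of each 100 kb bin under peaks of the control (blue) and siORCA (orange) along the 5 short arms; the horizontal axis is the distance from the array-side edge of each window, negative towards the telomere, and the array itself is left out at 0. In bins at least 20% covered in the control, the control line lies above the siORCA line by a median of 22.7 percentage points in 74 distal bins and 34.1 in 98 proximal bins. These bins were chosen by control coverage alone, which favours a gap in this direction.

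Distal peaks were also wider. In the control, the median width was 603 bp distally and 426 bp proximally, against 515 bp in the whole list. In siORCA it was 495 bp and 335 bp, against 414 bp. The distal median was the larger on 4 of 5 chromosomes in the control, with 379 bp against 390.5 bp on chromosome 13 as the exception, and on 5 of 5 in siORCA. The widest distal medians were those of chromosome 22, at 963.5 bp (control) and 598 bp (siORCA). Long peaks differed between the sides in siORCA. In the control list, peaks of at least 10 kb numbered 87 distally and 91 proximally, with 33.9% and 33.3% of the summed peak length. In siORCA there were 28 distally, with 25.8% of the length, and 3 proximally, with 2.05%. The widest siORCA peak was 141.5 kb in the distal windows and 15.2 kb in the proximal windows. In the control, the widest were 81.4 kb and 116.5 kb.

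The median fold was slightly higher distally, where the fold is the authors' enrichment of a peak over its background within each list. In the control the median was 3.01 (quartiles 2.77 and 3.28) distally and 2.90 (2.71 and 3.18) proximally. These medians exceeded 79.7% and 70.2% of all control peaks. In siORCA the medians were 3.38 (3.15 and 3.67) and 3.26 (3.03 and 3.58), above 58.6% and 45.7% of all siORCA peaks. The quartile ranges of the sides overlapped in both lists. The upper end did not follow the medians throughout. Peaks with a fold of at least 4 were 2.82% of distal and 5.83% of proximal control peaks, and 11.4% and 8.55% in siORCA. The highest fold was proximal in both lists, with 7.65 against 5.88 in the control and 12.8 against 6.84 in siORCA. The distal median was the higher on 3 of 5 chromosomes in the control and on 4 of 5 in siORCA. Without chromosome 22 the difference between the sides was 0.0434 in the control and 0.0639 in siORCA, against 0.107 and 0.121 with it, and without chromosome 15 it was 0.163 and 0.175. With a fold of at least 3 the control difference turned to -0.023.

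Most siORCA length on both sides lay under control peaks, but the reverse share differed between the sides. Control peaks overlay 85.7% of the siORCA length distally and 80.4% proximally, against 71.2% over all chromosomes. Of the control length, 54.7% was also covered in siORCA distally and 23.7% proximally, against 31.9% over all chromosomes. By chromosome, the share of control length ran from 31.4% (chromosome 13) to 60.8% (chromosome 22) distally, and from 13.9% (chromosome 13) to 36% (chromosome 15) proximally. Length covered in siORCA only was 0.429 Mb distally and 0.368 Mb proximally. Length covered in the control only was 2.13 Mb and 4.87 Mb.

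The sides also differed among control peaks of like fold. Of the distal control peaks with a fold from 3 to 3.5, 70.9% overlapped a siORCA peak (691 of 974; 95% Wilson interval 68.0 to 73.7%). The proximal value was 38.8% (481 of 1239; 36.1 to 41.6%), and over all chromosomes 49.8% of such control peaks were overlapped. From 3.5 to 4, the values were 73.5% (67.9 to 78.4%) and 36.2% (31.5 to 41.1%), against 68% over all chromosomes, which lies within the distal interval. At 4 and above they were 69.9% (58.6 to 79.2%) and 34.7% (29.5 to 40.3%), against 72.7%, which also lies within the distal interval. From 2.5 to 3 they were 41.2% (38.4 to 44.1%) and 19.2% (17.8 to 20.7%), against 28.2%. Below 2.5 the intervals overlapped, with 15.1% of 106 distal and 13.6% of 184 proximal peaks, both below the 30.4% of all chromosomes. Without chromosome 15, whose proximal window holds many narrow peaks of high fold, the proximal values were 43.5% from 3 to 3.5 and 47.1% from 3.5 to 4. Without chromosome 22, the distal values were 64.2% and 67.3%. Counting error alone enters these intervals, as if each peak were independent, although peaks of 1 array or duplicated segment share sequence. Peaks of like fold were not always of like width, and fold and width were not matched together. From 3 to 3.5 the median control width was 1103.5 bp distally and 625 bp proximally. It was 1149 and 186 bp from 3.5 to 4 and 577 and 140 bp at 4 and above, but 433 and 440 bp from 2.5 to 3.

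The sides were also compared among control peaks of like width. Of the control peaks of 500 bp to 2 kb, 64% overlapped a siORCA peak distally and 27.2% proximally, against 39.1% over all chromosomes. At 2 to 10 kb, 95.6% and 65.9% did so, against 61.1%, which is near the proximal share. Among peaks of at least 10 kb, 87 of 87 and 87 of 91 were overlapped, against 91.8% over all chromosomes. Of the length of these long peaks, siORCA peaks overlay 68.5% distally, 37.9% proximally and 61.4% over all chromosomes.

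**Figure D3:**
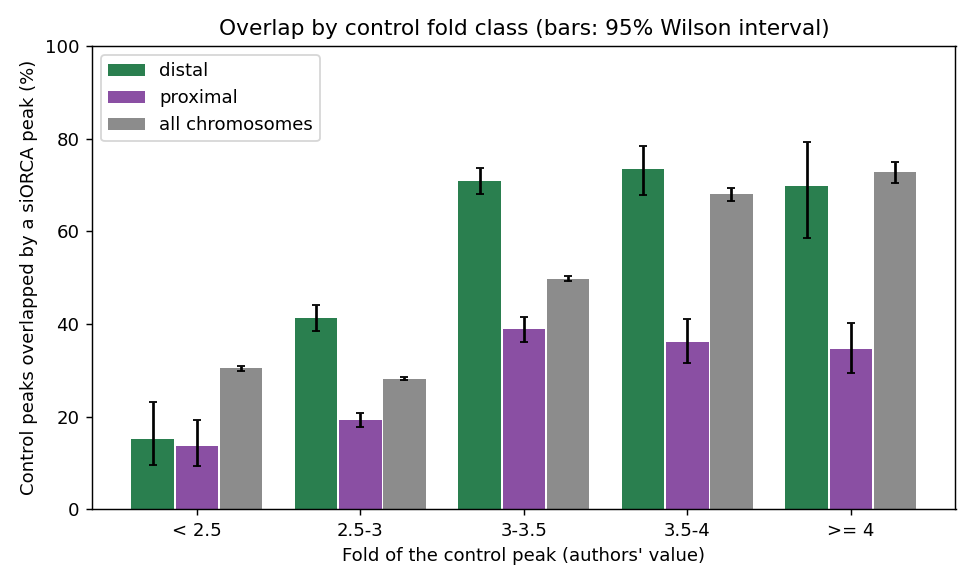
Percent of control peaks overlapped by a siORCA peak (vertical axis) by the fold of the control peak (horizontal axis). Bars show the distal windows, the proximal windows and all chromosomes. Error bars are 95% Wilson intervals, which treat each peak as independent. From a fold of 2.5 up the distal bars stand above the proximal ones, with 70.9% against 38.8% from 3 to 3.5. Peak width was not matched between the sides.

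In 100 kb bins, the distal windows held a smaller share of bins with lower siORCA coverage than all chromosomes did, and the proximal windows a like share. Among bins covered over at least 30% in the control, the proximal share was larger than that of all chromosomes. A bin was compared where at least 2% of it was covered in either list, and counted as lower where siORCA coverage was at most 0.5 times that of the control. Of 113 such distal bins, 49 were lower (43.4%), against 80.2% of the 15323 bins of all chromosomes. Of 240 proximal bins, 193 were lower (80.4%), which is close to that background. Most of the background bins, 10703 of them, were covered over only 2 to 10% in the control. Among bins with at least 5% covered in either list, 35 of 94 distal bins (37.2%) and 148 of 173 proximal bins (85.5%) were lower, against 76.5% of all. By chromosome, the distal share ran from 25% of 40 bins on chromosome 22 to 76.5% of 17 bins on chromosome 13, and the proximal share from 70.4% of 81 bins on chromosome 15 to 87.5% of 56 bins on chromosome 22. Bins with at least 2 times the control coverage numbered 1 distally and 5 proximally, where 2.06% of all bins were so called. Among bins covered over at least 60% in the control, the median ratio was 0.634 in 34 distal bins, 0.205 in 40 proximal bins and 0.727 in the 795 such bins of all chromosomes. From 30 to 60% the medians were 0.582, 0.138 and 0.408, and from 10 to 30% they were 0.475, 0.126 and 0.121. From 2 to 10% the order of the sides was the reverse, with medians of 0 in 24 distal bins, 0.274 in 107 proximal bins and 0.0796 in all. In that class 83.3% of the distal and 77.6% of the proximal bins were lower, against 87.3% of all. From 10 to 30% these shares were 68.2% and 86.5%, against 84.2%. From 30 to 60% they were 33.3% and 97.3%, against 56.9%, and from 60% up 11.8% and 72.5%, against 34.1%.

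Next to the array, the distal windows of all 5 chromosomes began with a stretch free of control peaks, followed by a covered block. The control list had no peak in the 200 kb next to the edge of any distal window, and siORCA peaks covered 0.46 kb there over the 5 arms together. From chromosome 13 to 22, the nearest control peak lay 241.4, 209.1, 201.3, 204.0 and 218.0 kb from the edge. On the proximal side the nearest control peak lay from 0 to 130.2 kb away, and control peaks covered 4.53% and siORCA peaks 1.63% of the 200 kb next to the edge.

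Beyond the empty stretch, control peaks joined over gaps of at most 3 kb formed a stretch of at least 20 kb on each arm, at 236.5 to 275.9 kb from the edge. It measured 53.2 kb on chromosome 13 (5370883 to 5424115), 76.5 kb on chromosome 14 (1679761 to 1756260) and 48.5 kb on chromosome 15 (2115042 to 2163521). On chromosome 21 it measured 30.2 kb (2732938 to 2763105) and on chromosome 22 36.4 kb (4408751 to 4445104). Control peaks covered from 68.2 to 82.2% of these stretches, and siORCA peaks from 27.2 to 55.8%. Over the zone from 200 to 400 kb, control coverage was 28.5%, 37.2%, 52.2%, 23% and 16% on chromosomes 13, 14, 15, 21 and 22. The siORCA coverage there was 17.5%, 20.8%, 40.4%, 14.4% and 8.36%, with ratios of siORCA to control from 0.523 to 0.774. Joined siORCA peaks formed a stretch of at least 20 kb at this distance on chromosomes 14, 15 and 21, at 245.0, 236.5 and 237.7 kb from the edge. On chromosomes 13 and 22 they did not, and the nearest siORCA stretch lay at 699.9 and 571.4 kb. The zones and the block were chosen after the profiles had been seen, the edges are those of the windows rather than of the annotated arrays, and no source used here says how multiply aligned reads were treated.

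**Figure D4:**
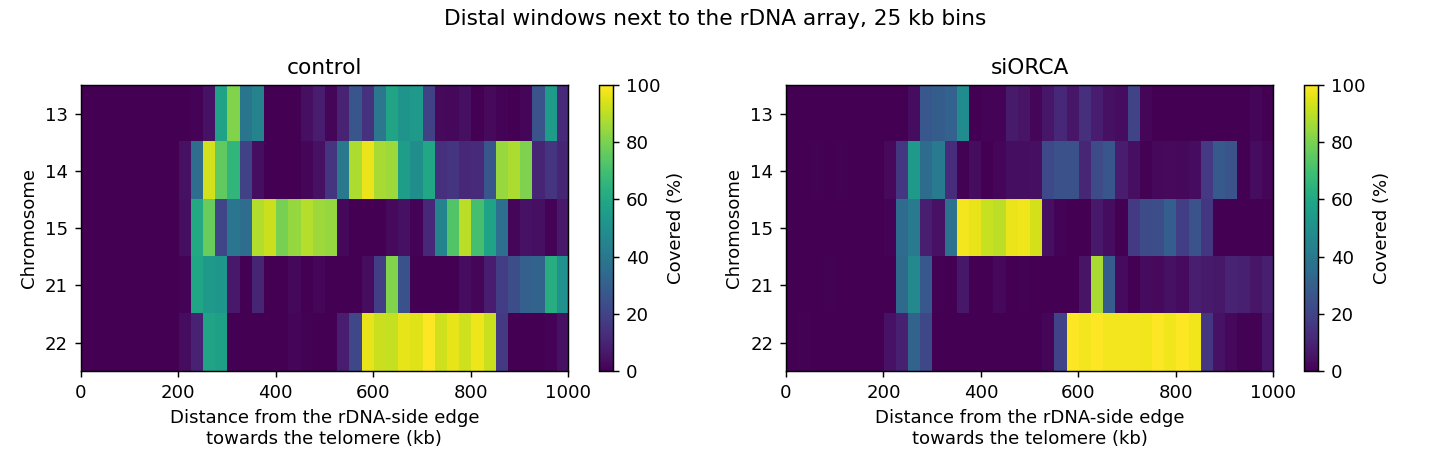
Percent of each 25 kb bin under control peaks (left) and siORCA peaks (right) in the 1000 kb of the distal windows next to the array, 1 row per chromosome; the horizontal axis is the distance from the window edge towards the telomere. All 5 rows are empty or nearly so up to 200 kb, then hold a covered block that is followed by near-empty bins on chromosomes 13, 14, 21 and 22, and chromosomes 15 and 22 carry a long block in both lists.

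The siORCA list held a class of distal peaks whose fold was high for that list. Peaks of at least 1 kb with a fold of at least 5 numbered 53 in the distal siORCA list (897.3 kb, or 29.9% of its peak length) and 4 in the proximal one (12.7 kb, or 0.676%). All chromosomes held 389 of them, with 10.6% of the siORCA peak length. The distal windows are 0.583% of the chromosomes and held 9.17% of the length of all such siORCA peaks. Control peaks of this fold and width numbered 0 on either side and 122 over all chromosomes. Folds are relative to each library's own background and were not compared between lists, so a limit of 5 is not alike in both. The median fold was 2.73 in the whole control list and 3.29 in the whole siORCA list. Of the length in the 53 distal siORCA peaks, 88.2% was also under control peaks, below the 97.2% over all 389.

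These peaks lay mainly in 6 stretches with a length-weighted mean fold of at least 5 in siORCA, all of them distal. On chromosome 14 the stretch from 6401 to 225577, at the telomere, had a fold of 5.53 and was covered over 93.6% in siORCA and 68.4% in the control. On chromosome 15, 1874460 to 2061167 had a fold of 5.99 and was covered over 94.3% and 85.2%. This stretch is the long block on chromosome 15 in the map of the distal ends, 338.8 kb from the window edge.

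Chromosome 22 held 2 of the 6. The stretch from 66841 to 226980, near the telomere, had a siORCA fold of 5.67 and was covered over 99.6% in siORCA and 97.5% in the control. The stretch from 3844560 to 4128617, 571.4 kb from the edge, had a fold of 5.93 and was covered over 98.3% and 94.3%. On chromosome 21 the stretches were short, 65190 to 98000 with a fold of 5.11 and 2342949 to 2371855 with 6.07. Chromosome 13 had no such stretch, but a single peak from 5338350 to 5352869 had a fold of 5.98, and 96.5% of it was covered in the control.

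In the control list the same 6 stretches had length-weighted folds from 3.32 to 3.61, against a median of 2.73 over single control peaks. These values exceeded the folds of 93.5 to 97.6% of single control peaks, but a length-weighted mean gives wide peaks more weight. In like measure, the control fold was 3.26 over the distal windows and 3.10 over all chromosomes. The proximal control stretch on chromosome 14 from 4663026 to 4933331 had 3.49. The siORCA folds of the 6 stretches exceeded those of 99.2 to 99.7% of single siORCA peaks. Length-weighted, the siORCA fold was 4.20 over the distal windows and 3.99 over all chromosomes. Together the 6 stretches spanned 911.8 kb, of which 881.3 kb was covered in siORCA and 780.3 kb in the control. Without them the distal ratio of siORCA to control was 0.541, with 0.397, 0.559, 0.581 and 0.581 on chromosomes 14, 15, 21 and 22. Each was above the proximal ratio of the same chromosome. The limits on fold and width were set after the peaks had been seen.

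**Figure D5:**
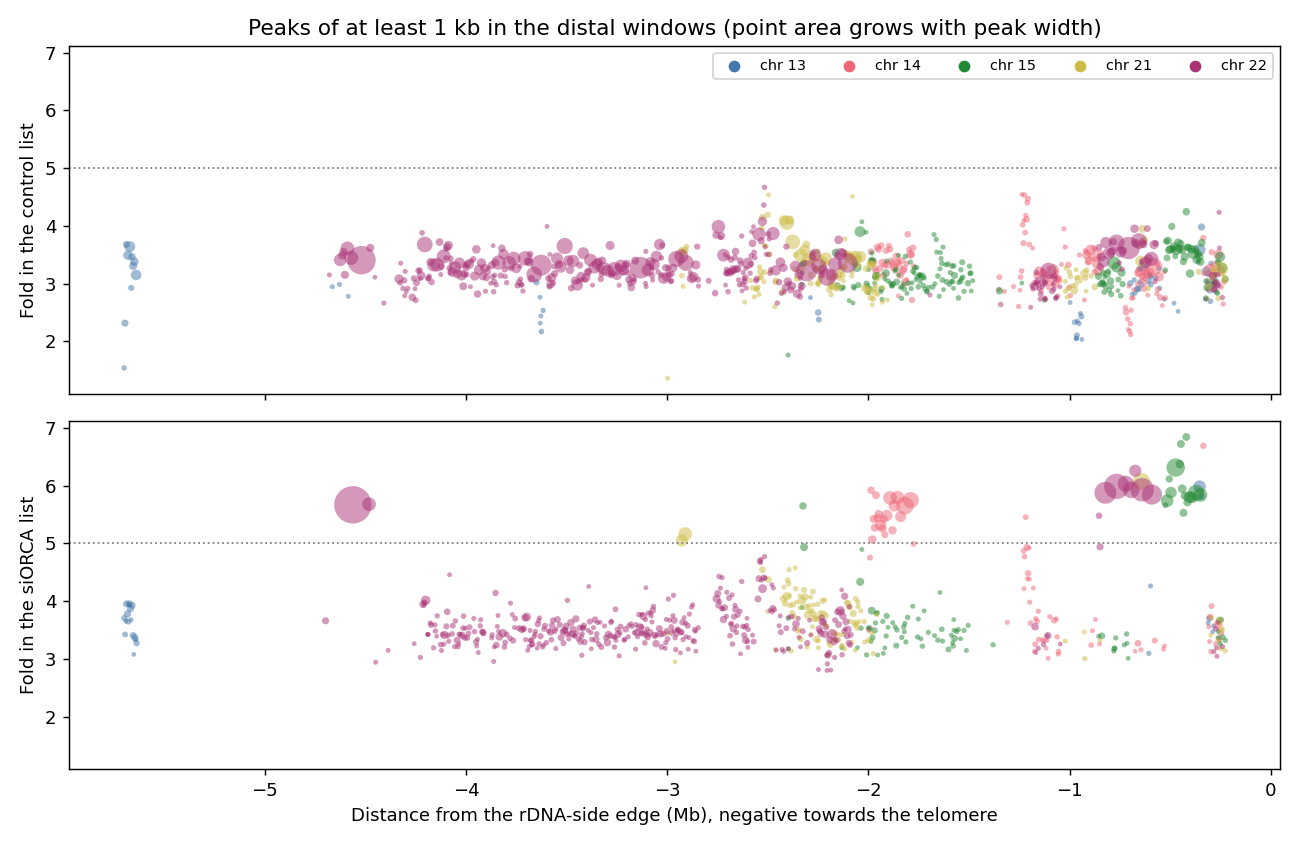
Fold of each peak of at least 1 kb in the distal windows (vertical axis, the authors' value within each list) against its distance from the array-side edge (horizontal axis, negative towards the telomere), control above and siORCA below; the point area grows with peak width and the dotted line marks a fold of 5. In siORCA 53 peaks lie above the line, most of them near the telomere of chromosomes 14 and 22 or within 1 Mb of the array. In the control 0 do, but folds are relative to each library's own background and are not compared between lists.

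The telomeric 0.25 Mb of the distal windows was covered over like lengths in both lists on some arms. On chromosome 22, control peaks covered 68% of it and siORCA peaks 66.4%, and on chromosome 13 the values were 25% and 19.4%. On chromosome 14 coverage was 60.7% and 83.4%, and on chromosome 21 it was 9.94% and 15.6%, both higher in siORCA. Chromosome 15 had 10.5% and 7.59%. The ratio of siORCA to control thus ranged from 0.725 to 1.57 over the 5 telomeric ends.

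The distal window of chromosome 22 was covered over most of its telomeric part. From 0 to 2.75 Mb, 540 control peaks covered 73.2% and 1089 siORCA peaks covered 46.4%, so siORCA had more peaks over less length. Its longest control stretch, from 899256 to 1868271 (969.0 kb), had 87.9% of its length under control peaks and 54.1% under siORCA peaks. From 2.75 to 3.5 Mb followed a part with 94 control peaks covering 4.79% and 0 siORCA peaks. Chromosome 21 from 0.5 to 1 Mb was covered over 72.6% and 49.7%, and chromosome 15 from 0.25 to 1 Mb over 42.4% and 27%.

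Chromosome 13 differed from the other distal windows by its low coverage. From 1.5 to 4.5 Mb, 47 control peaks covered 0.98% and siORCA had 0 peaks. In it, and just beyond its end, lay 2 runs without a peak of either list, 2091521 to 3023826 (932.3 kb) and 3626793 to 4535386 (908.6 kb). Its longest siORCA stretch, from 27 to 64414 at the telomere, was covered over 75.4% in siORCA and 89.8% in the control. An empty run in a peak list does not show that the mark is absent, since no read counts were at hand.

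On the proximal side, the dense parts of chromosomes 14 and 22 held much of the length covered in the control only. On chromosome 14 from 3.75 to 5.75 Mb, control peaks covered 62.3% and siORCA peaks 14.9%, a ratio of 0.239, and from 8.75 to 10 Mb the values were 47.7% and 10.6%. On chromosome 22 from 9 to 11 Mb they were 45.3% and 14%, and from 11.5 Mb to the window's end 43.7% and 6.49%, a ratio of 0.148. The numbers of peaks differed less than the lengths: on chromosome 14 from 3.75 to 5.75 Mb there were 431 control and 445 siORCA peaks, with median widths of 877 and 389 bp. Control peaks overlay from 86.4 to 92.0% of the siORCA length in these 4 parts.

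The longest control stretches of the proximal windows of chromosomes 14 and 22 showed the same difference. The longest of all proximal windows, on chromosome 15 and given below, did not. The control stretch on chromosome 14 from 5212017 to 5596256 (384.2 kb) had 83.5% of its length under control peaks and 17.2% under siORCA peaks. That on chromosome 22 from 9361412 to 9732792 (371.4 kb) was covered over 80% and 14.3%. The longest siORCA stretches of these windows, chromosome 14 from 4699472 to 4895550 and chromosome 22 from 9946576 to 10128368, were covered over 53.6% and 72.3% in siORCA, and over 91.5% and 98.8% in the control.

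Chromosome 15, the longest proximal window, fell into unlike parts. From 4.8 to 6.5 Mb, next to the array, coverage was 4.33% in the control list and 1.55% in the siORCA list. From 6.5 to 13.5 Mb, 754 control peaks covered 2.76% and 341 siORCA peaks covered 1.22%, spread over the whole 7 Mb. These peaks were narrow, with median widths of 156 bp (control) and 186 bp (siORCA). Their median fold in the control was 3.39 (quartiles 2.96 and 3.96), above 95.1% of all control peaks, while in siORCA it was 3.31, above 51.6% of that list. Of the control length there, 13.2% was also covered in siORCA, and of the siORCA length 30% lay under control peaks, against 23.7% and 80.4% over the proximal windows as a whole.

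From 13.5 to 16 Mb on chromosome 15, control peaks covered 35.1% and siORCA peaks 6.73%, a ratio of 0.191. The 3 longest proximal control stretches without a siORCA base lay here, from 13909401 to 13973710, from 14130462 to 14190030 and from 14271479 to 14322064, of 64.3, 59.6 and 50.6 kb. From 16 to 16.6 Mb, next to the centromere, the picture was different, with 89.9% under control peaks and 75.7% under siORCA peaks, a ratio of 0.842. The control stretch from 15958055 to 16555243 (597.2 kb) was the longest of the proximal windows, and 76.1% of it was covered in siORCA. Its length-weighted fold was 3.13 in the control and that of the siORCA peaks on it 3.55, so it did not belong to the class with a fold of at least 5.

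The proximal windows of chromosomes 13 and 21 were the least covered of the proximal windows in both lists. That of chromosome 21 was near the level of all chromosomes in the control, with 6.86% against 6.77%. On chromosome 13, 10.25 to 10.75 Mb held 164.8 of the 261.8 kb covered in the control and 39.4 of the 68.5 kb covered in siORCA. The 1.6 Mb from 13898004 to 15500000, up to the end of the window, held no peak of either list. On chromosome 21 the longest control stretch, from 10208885 to 10277587 (68.7 kb), had 58.8% of its length under control peaks and 7.77% under siORCA peaks.

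On 4 of the 5 chromosomes the strongest siORCA peak of at least 1 kb was distal. On chromosome 15 the strongest siORCA peak, from 1977064 to 1982074, had a fold of 6.84, and the strongest control peak of that window, from 1977082 to 1981623 with a fold of 4.24, lay inside it. The strongest siORCA peaks of the other distal windows had folds of 5.98, 6.69, 6.07 and 6.26 on chromosomes 13, 14, 21 and 22. Those of the proximal windows had folds of 6.66, 5.28, 4.13, 4.52 and 5.26 on chromosomes 13 to 22. The proximal peak on chromosome 13, from 10467631 to 10469343, was thus level with the distal ones but only 1.71 kb wide. Among siORCA peaks of any width, the highest fold was also proximal on chromosomes 14 and 21, at 9.42 and 12.8.

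Of the joined stretches of at least 20 kb, the control had 43 distally (5.55 Mb) and 91 proximally (6.84 Mb), and siORCA had 47 (4.12 Mb) and 20 (1.57 Mb). At least 50% of the stretch was covered in the other list for 45 of the 47 distal and 18 of the 20 proximal siORCA stretches, but for 13 of the 43 distal and 2 of the 91 proximal control stretches. Over all chromosomes the shares were 53.1% of 823 siORCA stretches and 13% of 1708 control stretches, against 95.7% and 30.2% distally and 90% and 2.20% proximally. Control stretches without a siORCA base numbered 1 distally (2.33%), on chromosome 13 from 2066709 to 2091520 (24.8 kb), and 10 proximally (11%), against 5.04% over all chromosomes. No siORCA stretch of at least 20 kb was without a control base on either side, against 11 of the 823 (1.34%) over all chromosomes. The longest without one was 4.12 kb distally (chromosome 22 from 4136903 to 4141021) and 9.57 kb proximally (chromosome 13 from 11170109 to 11179681).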

How the data were processed

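H3K27me3 ChIP of U2OS cells was sequenced for 101 cycles from 1 end after fixation in 1% formaldehyde for 10 min, per the labels' protocols. Tools named without versions are, per the submitters' processing notes, Bowtie2, SAMtools, Trimmomatic and bcl2fastq, and the build is T2T-CHM13. Not given in the sources used here are the peak caller, its settings, its use of the input and the treatment of duplicate and multiply aligned reads. The authors deposited 1 broad peak list per library, with the fold of each peak over background (a ratio), its −log10 p and −log10 q, and a score that was not used. No depth was given.

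Peaks were merged and clipped to the windows, and length, overlap and stretches (gaps of at most 3 kb, at least 20 kb long) were computed with Python 3.11.15, numpy 2.4.6 and pandas 2.3.3, and Wilson intervals with scipy 1.17.1. Coverage and overlap were tested on 50 simulated sets against a base-by-base count, and 0 differed. Background bins of 100 kb came from 22 autosomes and the X chromosome, ended at the last peak. Coordinates are printed from 1. No gene was named and no sequence shown, since the tables used here were on GRCh38. The regions named were, per window, the longest stretch and the strongest peak of at least 1 kb of each list (not all are printed), and per side the 3 longest stretches without a base of the other list. Parts, zones and strong stretches were chosen after the profiles had been seen. The windows and comparisons were chosen with earlier results of these data known. The alternatives limited peaks by −log10 q, fold or number, changed the windows, bins or overlap, or left out a chromosome.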

Additional observations from a re-analysis of the deposited data

How the results depend on the processing

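No paired analysis was possible because each condition had 1 library, and for the same reason no library could be left out. In every setting that was run, the ratio of siORCA to control was below 1 on both sides and higher distally. The distal ratio ranged from 0.454 (−log10 q of at least 2) to 0.774 (fold of at least 3). The proximal ratio was 0.182 and 0.441 under these limits. Leaving out 1 chromosome gave 0.615 to 0.655 distally and 0.244 to 0.323 proximally, and for distal over proximal coverage 1.18 to 1.85 in the control and 2.28 to 4.10 in siORCA. Without control stretches of at least 100 kb covered over at least 80%, chosen after seeing the data, the ratios were 0.551 and 0.235. The difference in median fold between the sides depended on the setting. In the control it was 0.0127 under the limit on q, -0.023 under that on fold, and 0.0434 to 0.163 with 1 chromosome left out. In siORCA these values were 0.0406, 0.0714 and 0.0639 to 0.175. A limit on fold removes the lower part of the values it compares. The median width ratio of distal to proximal rose to 2.60 in the control under the limit on fold and to 2.27 in siORCA under that on q. Of the control length, siORCA peaks overlay 39.2% distally and 15.9% proximally with the limit on q, and 60.5% and 30.5% with that on fold. Counted by number of control peaks rather than length, 32.3% distally and 11% proximally were overlapped over at least 50% of their length. By at least 1 bp, 26% of the proximal control peaks were overlapped. Of the siORCA length, control peaks overlay 87.5% proximally with the limit on q, and 78.2% and 69.2% with that on fold. Counted by number of siORCA peaks, 77.2% and 64.9% were overlapped over at least 50% of their length, and 73.2% proximally by at least 1 bp. Bins lower in siORCA numbered 95 distally and 355 proximally at 50 kb, 29 and 108 at 200 kb, and 14 and 117 with the limit on fold. Their shares of the bins compared were 44.2%, 46% and 15.4% distally and 75.7%, 80.6% and 67.2% proximally, against 78.0%, 82.5% and 54.3% of all bins. Bins higher in siORCA numbered 4 and 23, 0 and 0, and 5 and 15 in the same settings. Their shares were 1.86%, 0% and 5.49% distally and 4.90%, 0% and 8.62% proximally, against 3.46%, 1.39% and 24.2% of all bins. With at least 5% covered, 0 and 1 bins were higher (0% and 0.578%), against 2.41% of all. In that setting 35 (37.2%) and 148 (85.5%) were lower, against 76.5% of all. Counts of bins change with bin size by construction; the cause of the other changes was not tested. The depth of the libraries was not given, which limits what an empty siORCA region shows.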

Other observations

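The coverage of the 5 distal ends was compared in 600 steps of 1 kb from the window edge. Between pairs of chromosomes, Pearson's r in the control was from -0.113 to 0.595 without a shift, and from 0.356 to 0.691 at the best shift. The highest value was between chromosomes 13 and 14, at a shift of 46 kb, where r in siORCA was 0.511, also the best shift in that list. In siORCA the highest value was 0.645, between chromosomes 15 and 22 at a shift of -231 kb, where the long block of each coincides. These are descriptions across sites. The steps of an arm share a library and neighbouring peaks, and a best shift raises r by construction.

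The bins covered at least 2 times as much in siORCA as in the control were thin in both lists. The 1 distal bin, on chromosome 21 from 2.2 to 2.3 Mb, had 0.808% under control peaks and 2.54% under siORCA peaks. Of the 5 proximal bins, the most covered in siORCA was on chromosome 21 from 6.5 to 6.6 Mb, with 2.22% and 6.16%.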
